A study of Homo sapiens with 6 samples.

Results

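This report covers 36 genes of programmed cell death in BT-549 cells, chosen by name from the BCL2 family, the caspases, the death receptors with their ligand, and the p53 pathway. They were found by symbol among the 63140 genes listed for each library. BT-549 is an established human triple negative breast cancer line. To learn how signals from adipocytes change gene expression in such cells, RNA was sequenced from 3 wells grown for 24 h in adipocyte conditioned medium (ACM) and from 3 wells grown for 24 h in unconditioned medium (UCM). All were of the WT genotype, with no transgene in either group. ACM is the medium collected from OP9 mouse cells differentiated into adipocytes in a medium with insulin and oleate, while the formula of UCM is not given in the sources used here, so that conditioning and base medium cannot be told apart. The labels give the ACM of these samples as 50% and the supplement of the study describes it as undiluted. RNA came from adherent cells lysed in the wells, so cells that had already detached were not measured.

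Cells die by apoptosis along a mitochondrial and a receptor route. On the mitochondrial route, BH3-only proteins such as PUMA and NOXA bind and neutralise the anti-apoptotic members of the BCL2 family, the effectors BAX and BAK then open pores in the outer mitochondrial membrane, and cytochrome c escapes and assembles with APAF1 into the apoptosome that activates caspase-9. On the receptor route, ligands such as TRAIL and FAS ligand engage death receptors, which recruit FADD and caspase-8. The p53 pathway, which MDM2 and MDM4 hold in check, is known to induce several of these genes. Growth factors, inflammatory signals through NF-kB, and the integrated stress response through ATF4 and CHOP are other known inputs to the same genes.

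The members were all measured in both media, and most changed little. BBC3, which encodes the BH3-only protein PUMA, rose 2.50-fold in ACM, and TNFRSF10B, which encodes the TRAIL receptor DR5, rose 1.39-fold. CYCS, which encodes cytochrome c, fell by 18.3%. These 3 genes were called at an adjusted p of no more than 0.05 from edgeR's quasi-likelihood test, in which p-values were adjusted over all 14451 genes tested. The filter on low counts kept 31 of the 36 members, so that 2 were higher and 1 was lower, a share of 9.68% beside 5.56% of all genes tested (3.35% higher and 2.21% lower). Over the tested members the median log2 FC (ACM against UCM) was 0.08, with 20 members above 0 and 11 below, beside a median of -0.01 over all genes. The median size of the change was 0.14 on the log2 scale in the members and 0.16 in all genes.

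At an unadjusted p-value at or below 0.05, 7 members were higher (BBC3, TNFRSF10B, BCL2A1, APAF1, PMAIP1, BCL2L2 and BCL2L1) and 2 were lower (CYCS and BAK1). This was 29.0% of the tested members beside 23.3% of all genes (11.9% higher and 11.5% lower). The thresholds of the study, a log2 FC of 0.58 or more in size with an unadjusted p of no more than 0.05, were applied. The p-values here came from edgeR while the study used DESeq2, so these calls are not its DEG lists. BCL2A1, BBC3 and PMAIP1 passed as higher and 0 members passed as lower. Of all genes tested 5.83% passed those thresholds, 4.12% as higher and 1.71% as lower. The CPM values (counts scaled to library size with TMM) of the ACM libraries all lay above those of the UCM libraries for 7 members and below them for 2, beside 13.9% and 15.1% of all genes (29.0% in either direction).

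Expected counts summed to between 17135270 and 21053214 per library, and the coefficient of biological variation between replicates was 0.115 over all genes. UCM replicate 1 had the highest CPM of the UCM libraries for 16 of the 31 tested members and for 38.0% of all genes, and for 6 of the 7 members that were higher at an unadjusted p-value. Without that library, 6 members were higher at the adjusted p-value (APAF1, BBC3, BCL2A1, CFLAR, PMAIP1 and TNFRSF10B) and 1 was lower. Of all genes 738 of 14684 were then higher and 572 lower, beside 484 and 320 of 14451 with all libraries. Without any other single library only BBC3 was higher, and CYCS was lower in 1 of those 5 fits, the one without ACM replicate 3. In those 5 fits between 125 and 415 of all genes were higher and between 62 and 206 lower. ACM replicate 2 had the highest CPM of the ACM libraries for each of the 7 members that were higher at an unadjusted p-value. The share of all genes for which it was highest was not counted. Without ACM replicate 2, 3 members were higher at an unadjusted p-value from edgeR, and likewise 3 without UCM replicate 3. Of all genes 1183 of 14727 and 1430 of 14775 were higher in these 2 fits. The label calls the cells epithelial, but the epithelial markers KRT8 and KRT18 averaged 0.30 and 0.56 TPM in UCM (a level per transcript length), EPCAM had 2 counts in all, and VIM, a mesenchymal marker, averaged 2671 TPM. Of the receptor markers, ESR1 and PGR were at 0 in every library, while ERBB2 averaged 27.5 TPM in ACM and 28.8 TPM in UCM. The 6 adipocyte markers summed to at most 0.33 TPM in any library, with ADIPOQ, CIDEC and LEP at 0, and none of them passed the filter. Of 6 stromal and immune markers 1 passed it, CD68, which was higher in ACM (log2 FC 1.76, SE 0.34, adjusted p = 0.0335 from edgeR). The list summed to between 12.9 and 31.0 TPM in ACM and between 6.10 and 8.37 TPM in UCM, and without CD68 to at most 1.07 TPM, with CD3E and MS4A1 at 0. The part of these markers in the results for the members was not tested. In RNA from whole wells, fewer cells with a transcript and less of it per cell cannot be told apart.

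The members spanned a wide range of levels in UCM, and 9 of the 36 averaged at least 50 TPM, 10 between 10 and 50, 13 between 1 and 10, and 4 under 1. CYCS was the most abundant with 205, 223 and 233 TPM in UCM replicates 1, 2 and 3, and with 164, 165 and 187 TPM in ACM. BAX, the pore-forming effector, followed with 172, 161 and 173 TPM in UCM and 163, 149 and 164 TPM in ACM. In UCM neither CYCS nor BAX overlapped with the next gene in this order. AIFM1, a flavoprotein of the mitochondrial intermembrane space, stood at 120, 125 and 131 TPM in UCM and 109, 114 and 127 TPM in ACM. MCL1, a short-lived anti-apoptotic protein, had 128, 120 and 126 TPM in UCM and 140, 129 and 127 TPM in ACM. BAD, a BH3-only protein that growth factor signaling holds inactive by phosphorylation, had 94.8, 124 and 116 TPM in UCM and 103, 96.5 and 124 TPM in ACM. The UCM values of these 3 genes overlapped with one another, so their order among themselves was within the spread. BBC3, at 3.37 ± 0.42 TPM in UCM, and BCL2A1, at 1.78 ± 1.23 TPM (SD, n = 3), lay far below them.

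**Figure D1:**
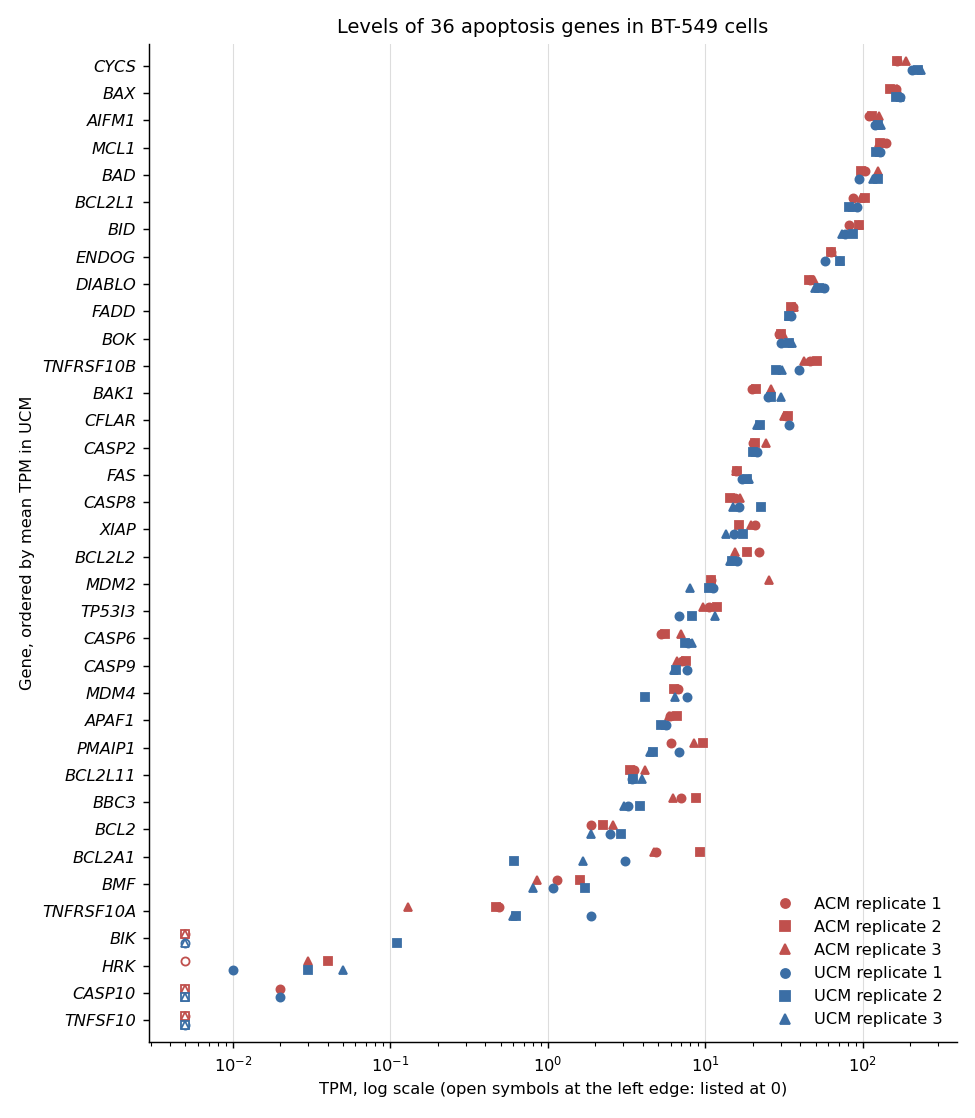
TPM of the 36 members (log scale) in each of the 6 libraries, ordered by the mean in UCM, with ACM in red, UCM in blue and the replicate number given by the symbol. Values range from 0 (open symbols at the left edge) to over 200 TPM for CYCS, and the red and blue symbols lie clearly apart for few genes, among them BBC3 and BCL2A1.

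The 2 brakes on p53 did not pass the test in edgeR, DESeq2 or limma-trend, nor at an unadjusted p-value in edgeR. MDM2, the ubiquitin ligase that marks p53 for degradation and is itself a classical p53 target, had 35.98, 38.4 and 37.5 CPM in ACM and 39.4, 32.9 and 34.9 CPM in UCM. The groups overlapped, with a log2 FC of 0.06 (SE 0.09, adjusted p = 0.740 from edgeR). MDM4, its partner without ligase activity of its own, had a log2 FC of -0.06 (SE 0.24, adjusted p = 0.914 from edgeR). The TPM of MDM2 set a single library apart. It was 25.2 in ACM replicate 3, and between 7.95 and 11.2 in the other 5 libraries. RSEM, which estimates how reads divide among a gene's transcripts, gave MDM2 an effective length of 2147 bases in ACM replicate 3 and of 4418 to 6283 bases elsewhere, and TPM divides by that length. On log2(TPM + 1) with limma-trend the log2 FC of MDM2 was 0.52 (adjusted p = 0.370), and with the effective lengths as offsets in edgeR it was 0.66 (adjusted p = 0.314). A processed pseudogene on the same strand, ENSG00000256664, shares 439 exon bases with MDM2 in GENCODE 44 and held 3, 3 and 0 counts in ACM against 16, 12 and 18 in UCM. Summed with the pseudogene, MDM2 stood at 37.4 ± 1.24 CPM (SD, n = 3) in ACM against 36.5 ± 3.36 CPM in UCM.

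**Figure D2:**
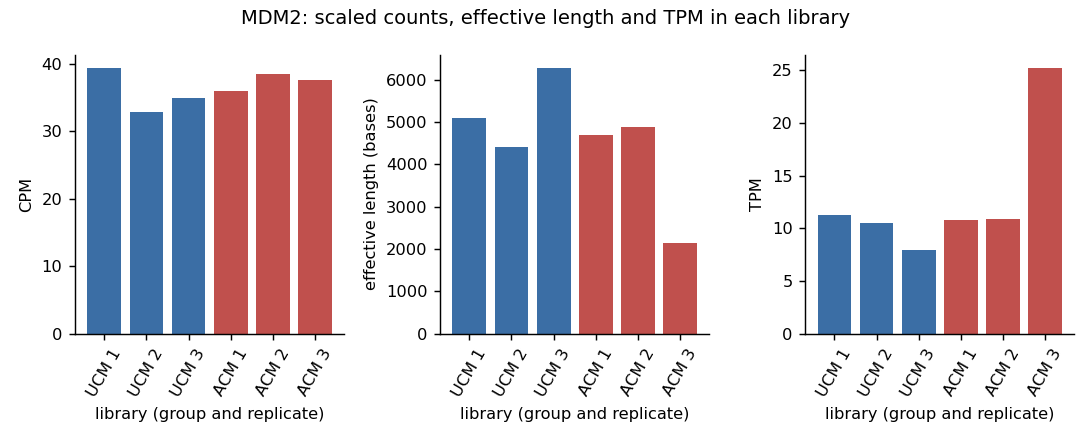
MDM2 in each library as CPM, as effective length in bases and as TPM, with UCM in blue and ACM in red. The CPM bars are close to level at 32.9 to 39.4, while ACM replicate 3 has the shortest effective length, 2147 bases, and the highest TPM, 25.2.

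The 5 anti-apoptotic BCL2 genes all had a log2 FC above 0, and 0 of them passed at the adjusted p-value in edgeR (3 at an unadjusted p-value, and BCL2A1 alone at the adjusted p-value in DESeq2). BCL2A1 (ENSG00000140379) lies on chromosome 15 and encodes BFL1, an inducible survival protein and a known NF-kB target. Counts of 36, 59 and 30 were assigned to it in ACM, in the order of the replicates, against 22, 4 and 10 in UCM. The ACM values of 1.71, 3.32 and 1.63 CPM all lay above the UCM values of 1.04, 0.22 and 0.58 CPM, but the UCM values themselves spread widely. The log2 FC of 1.82 was the highest of the members and was estimated with a wide error (SE 0.52, adjusted p = 0.0699 from edgeR). DESeq2 gave 1.85 with an adjusted p-value of 0.0207, and without UCM replicate 1 the log2 FC was 2.48 with an adjusted p-value of 0.0201 from edgeR. Over all alternatives the adjusted p-value of BCL2A1 lay between 5.86e-04 and 0.266.

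MCL1 and BCL2L1, which encodes BCL-XL, supplied most of the transcripts of this group. Together they made up 89.4 ± 1.27% of its summed TPM in ACM and 91.7 ± 0.54% in UCM (SD, n = 3). BCL2L1 had 145, 170 and 161 CPM in ACM and 147, 135 and 137 CPM in UCM. UCM replicate 1 lay above ACM replicate 1, so the groups overlapped, and the log2 FC was 0.18 (SE 0.08, adjusted p = 0.181 from edgeR). MCL1 had a log2 FC of 0.03 (SE 0.06, adjusted p = 0.832 from edgeR), an estimate that left between -0.10 and 0.15 within 2 SE. BCL2, the founding member of the family, was low at 2.25 ± 0.36 TPM in ACM and 2.42 ± 0.52 TPM in UCM, and its log2 FC of 0.12 (SE 0.16) did not pass the test.

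BCL2L2, which encodes BCL-W, had 37.1, 38.4 and 29.0 CPM in ACM and 31.2, 26.7 and 26.4 CPM in UCM. ACM replicate 3 fell between the UCM values, and the log2 FC was 0.31 (SE 0.12, adjusted p = 0.159 from edgeR). The gene shares 815 exon bases with BCL2L2-PABPN1, a readthrough gene on the same strand, and reads from the shared part can be assigned to either. The readthrough gene held 246, 249 and 183 counts in ACM against 352, 240 and 249 in UCM, a difference in the opposite direction to that of BCL2L2. Summed, the pair had 46.7 ± 6.97 CPM (SD, n = 3) in ACM against 42.8 ± 4.47 CPM in UCM, and the groups overlapped.

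The 3 genes for pore-forming effectors all had a log2 FC below 0, and 0 passed at the adjusted p-value in edgeR, DESeq2 or limma-trend (1 at an unadjusted p-value in edgeR). BAK1 encodes BAK, which resides in the outer mitochondrial membrane, and had 26.5, 28.5 and 34.0 CPM in ACM and 32.5, 34.7 and 39.9 CPM in UCM. ACM replicate 3 lay above UCM replicate 1, and the log2 FC of -0.27 did not pass over all genes (SE 0.12, adjusted p = 0.193 from edgeR). BAX was level, with 75.1, 73.3 and 77.5 CPM in ACM and 74.2, 76.3 and 78.5 CPM in UCM and a log2 FC of -0.02 (SE 0.07). BOK, a BAX-like protein whose level is set largely by protein turnover, had a log2 FC of -0.12 (SE 0.09). BAX made up 75.2 ± 1.39% of the summed effector TPM in ACM and 73.7 ± 1.77% in UCM (SD, n = 3).

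Of the 8 genes for BH3-only proteins, the sensors that start the mitochondrial route, 6 were tested and 1 passed at the adjusted p-value. BBC3 (ENSG00000105327) lies on chromosome 19 from 47220822 to 47232766 (GRCh38) on the minus strand, and encodes PUMA, which binds all anti-apoptotic BCL2 proteins and is a known target of p53 and, under stress of the endoplasmic reticulum, of CHOP. Its counts were 136, 162 and 119 in ACM against 62, 59 and 46 in UCM. These corresponded to 6.46, 9.13 and 6.47 CPM in ACM and to 2.94, 3.17 and 2.68 CPM in UCM. The lowest ACM value was thus well above the highest UCM value, and ACM replicate 2 was the highest of all. The log2 FC was 1.32 (SE 0.21, adjusted p = 0.0073 from edgeR). BBC3 was the only member that stayed at or below 0.05 under all 15 alternatives, over which its adjusted p-value lay between 4.62e-07 and 0.0380. Over the fits that lacked 1 library its log2 FC lay between 1.14 and 1.42, and on log2(TPM + 1) with limma-trend it was 0.92. As a share of the summed BH3-only TPM, BBC3 was 3.46%, 4.07% and 2.62% in ACM and 1.74%, 1.71% and 1.504% in UCM.

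PMAIP1 encodes NOXA, which binds MCL1 and is induced both by p53 and by ATF4. It had 6.46, 11.0 and 9.57 CPM in ACM and 7.39, 5.05 and 5.02 CPM in UCM. ACM replicate 1 and UCM replicate 1 overlapped, and the log2 FC of 0.62 did not pass over all genes (SE 0.23, adjusted p = 0.143 from edgeR). Without replicate 1 of both conditions, an alternative chosen after seeing the data, the log2 FC was 1.04 (adjusted p = 0.0055 from edgeR), and without UCM replicate 1 alone it was 0.84 (adjusted p = 0.0478). BMF, which is held at the cytoskeleton and released by loss of attachment, was low at 1.20 ± 0.38 TPM in ACM and 1.19 ± 0.47 TPM in UCM. Its CPM values did not overlap between the groups, but the log2 FC of 0.38 had an SE of 0.25. BCL2L11, which encodes BIM and shares 727 exon bases with a long noncoding RNA on the opposite strand (MIR4435-2HG), had a log2 FC of 0.14 (SE 0.13).

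BID, which caspase-8 cleaves to link the receptor route to mitochondria, and BAD made up 90.7 ± 1.39% of the summed BH3-only TPM in ACM and 93.3 ± 0.98% in UCM (SD, n = 3). Their log2 FC was 0.18 (SE 0.09) and -0.06 (SE 0.11), and neither passed the test. BAD shares 404 exon bases with GPR137 on the opposite strand, which averaged 50.3 TPM in ACM and 51.8 TPM in UCM. Whether strand was used in counting is not given in the sources used here. BIK and HRK were left out by the filter, BIK with 0 counts in all in ACM and 1 in UCM and HRK with 5 and 6.

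Promoters are shown for BCL2A1 and BBC3, the members with the highest log2 FC, and for CYCS, the one called lower, so that their start regions can be set side by side. RefSeq promoters of GRCh38.p14, from 250 bases before to 50 bases after the start, matched 30 of the 36 members (not BCL2L2, MCL1, BIK, CASP10, TNFRSF10A or TNFRSF10B). The regions are chr19:47232618-47232917, chr15:79971147-79971446 and chr7:25125211-25125510, all on the minus strand and written from 5′ to 3′. Where several promoters were listed for a member, only the first was used. The BBC3 window has its start inside the annotated gene, whose outer end is at 47232766, while those of BCL2A1 and CYCS start at the gene end. Capitals mark a CCAAT box (CCAAT, or ATTGG on the other strand) in BBC3 and CYCS, and the TATA box letters TATAAA followed by TGATGNAA, the core of a composite C/EBP-ATF element, in BCL2A1.
BBC3: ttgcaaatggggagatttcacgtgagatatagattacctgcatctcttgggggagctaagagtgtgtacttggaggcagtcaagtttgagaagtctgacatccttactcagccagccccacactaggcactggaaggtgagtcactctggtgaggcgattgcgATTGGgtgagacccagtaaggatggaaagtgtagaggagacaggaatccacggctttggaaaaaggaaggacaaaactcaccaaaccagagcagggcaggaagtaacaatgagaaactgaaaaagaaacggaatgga
BCL2A1: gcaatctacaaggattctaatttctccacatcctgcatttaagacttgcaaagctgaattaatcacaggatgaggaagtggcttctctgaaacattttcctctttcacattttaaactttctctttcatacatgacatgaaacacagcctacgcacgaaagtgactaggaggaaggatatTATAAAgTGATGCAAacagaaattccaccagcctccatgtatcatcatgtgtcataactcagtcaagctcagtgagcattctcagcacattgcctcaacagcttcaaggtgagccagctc
CYCS: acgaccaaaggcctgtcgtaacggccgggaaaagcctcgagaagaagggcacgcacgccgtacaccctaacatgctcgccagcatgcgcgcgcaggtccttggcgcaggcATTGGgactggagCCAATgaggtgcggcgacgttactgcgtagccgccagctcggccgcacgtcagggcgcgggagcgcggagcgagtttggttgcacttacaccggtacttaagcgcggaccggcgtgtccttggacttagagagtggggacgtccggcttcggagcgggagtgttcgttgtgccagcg
Each motif was searched on both strands in 35116 promoters of the same length. The CCAAT box was found in 34.6% of them and in 13 of the 30 members, among them BBC3, CYCS, BAX, BAK1 and APAF1. TATAAA was found in 11.5% of all promoters and in 3 members (BCL2A1, BCL2L1 and TNFSF10), and TGATGNAA in 3.62% and in 2 members (BCL2A1 and HRK). In the BCL2A1 window they lay close together without overlap, at bases 181 to 186 and 188 to 195. A p53 half-site was found in 6.63% of all promoters and in 1 member, BAK1, and an NF-kB site in 11.3% and in 3 members, BMF, CFLAR and HRK. The core of the NRF1 site was found in 5.78% and in CASP2, ENDOG and FADD. These matches describe letters in short windows and not binding, and known p53 sites of several of these genes lie outside such windows.

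**Figure D3:**
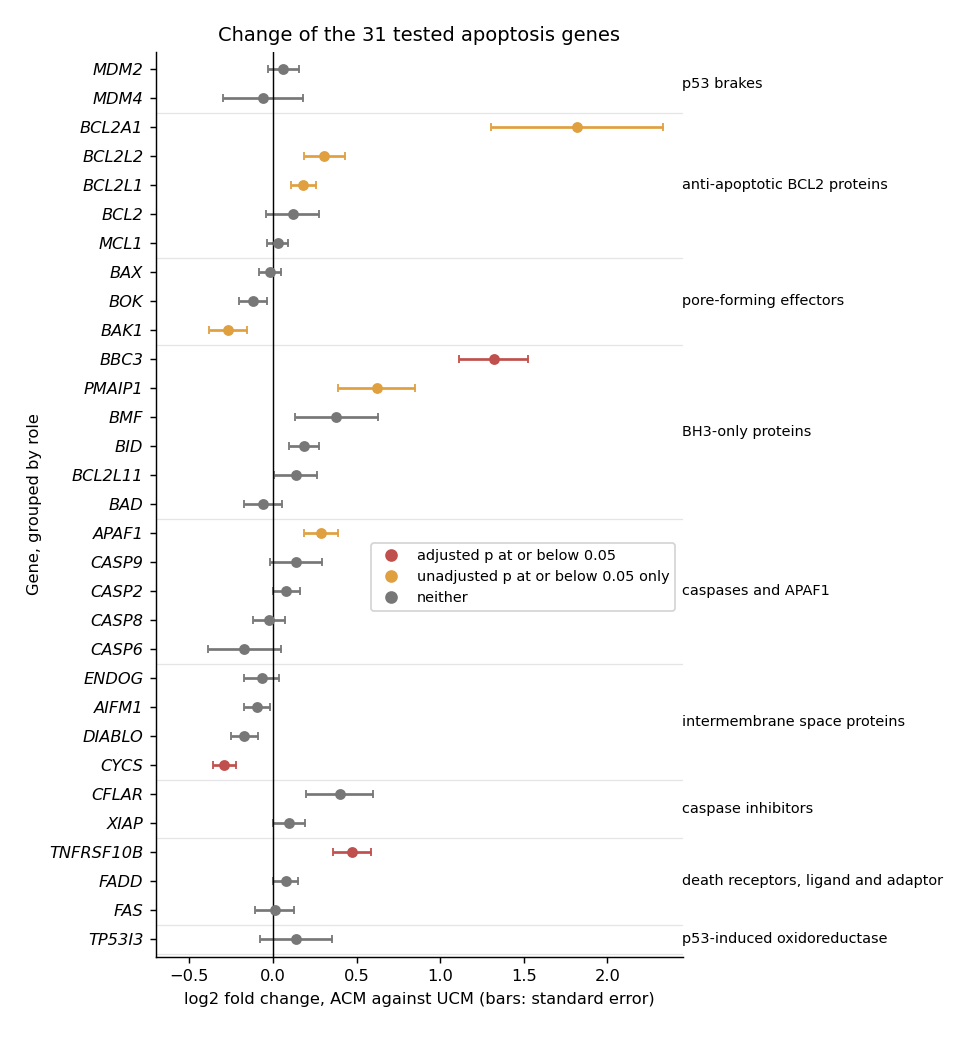
log2 FC of the 31 tested members (horizontal axis, ACM against UCM) with bars of 1 SE, grouped by role. Red marks the 3 genes called over all genes tested (BBC3, TNFRSF10B and CYCS), orange the 6 others called before adjustment only, and grey the rest, most of which lie near 0.

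Of the 6 genes for caspases and for the apoptosome scaffold APAF1, 5 were tested and 0 passed at the adjusted p-value in edgeR, DESeq2 or limma-trend (1 at an unadjusted p-value in edgeR). APAF1, which forms the apoptosome with cytochrome c, had 29.3, 29.8 and 27.1 CPM in ACM and 26.0, 23.3 and 21.2 CPM in UCM. All ACM values lay above all UCM values, by a small margin, and the log2 FC was 0.29 (SE 0.10, adjusted p = 0.124 from edgeR). Without UCM replicate 1 it was 0.37 (adjusted p = 0.0439 from edgeR). The initiators CASP9, of the apoptosome, and CASP8, of the death receptors, had a log2 FC of 0.14 (SE 0.16) and -0.02 (SE 0.10). CASP2, an initiator linked to the p53 pathway through PIDD1, had a log2 FC of 0.08 (SE 0.08), and the executioner CASP6 had -0.17 (SE 0.22). CASP10, the second initiator of the death receptors, had 1 count in all in ACM and 1 in UCM.

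The 4 genes for proteins that leave the mitochondrial intermembrane space all had a log2 FC below 0, and 1 passed at the adjusted p-value. CYCS (ENSG00000172115) lies on chromosome 7 from 25118656 to 25125260 (GRCh38) on the minus strand. Besides its role in apoptosis, cytochrome c carries electrons in the respiratory chain. It had 202, 203 and 222 CPM in ACM and 241, 265 and 263 CPM in UCM. The highest ACM value, in replicate 3, was below the lowest UCM value, in replicate 1. The log2 FC was -0.29 (SE 0.07, adjusted p = 0.0397 from edgeR). Over the fits that lacked 1 library it lay between -0.34 and -0.26. The call ended without ACM replicate 1 or 2 and without UCM replicate 2 or 3, with an adjusted p-value of up to 0.193, and on log2(TPM + 1) with limma-trend, where the log2 FC was -0.35 (adjusted p = 0.0573). CYCS has 42 named pseudogenes in GENCODE 44, to which 5 counts in all were assigned in ACM and 1 in UCM. DIABLO, whose protein SMAC releases caspases from XIAP, had 38.2, 39.1 and 40.2 CPM in ACM and 46.8, 44.03 and 41.4 CPM in UCM. The groups did not overlap, but the log2 FC of -0.17 did not pass the test (SE 0.08, adjusted p = 0.234 from edgeR). AIFM1 and ENDOG, a nuclease of mitochondria, had a log2 FC of -0.10 (SE 0.08) and -0.07 (SE 0.10). ENDOG shares 459 exon bases with SPOUT1 on the opposite strand.

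The 2 caspase inhibitors were not called in edgeR, DESeq2 or limma-trend. CFLAR encodes FLIP, which blocks caspase-8 at the death receptors and is a known NF-kB target. It had 53.1, 57.1 and 46.9 CPM in ACM and 53.5, 33.2 and 32.1 CPM in UCM. UCM replicate 1 lay among the ACM values while the other 2 UCM libraries were well below them, and the log2 FC of 0.40 had a wide error (SE 0.20, adjusted p = 0.295 from edgeR). Without UCM replicate 1 the log2 FC was 0.69 (adjusted p = 0.0022 from edgeR), and without UCM replicate 2 or 3 it was 0.29 or 0.28. XIAP, which inhibits caspase-9 directly, had a log2 FC of 0.10 (SE 0.10).

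Of the 5 genes for death receptors, their ligand and their adaptor, 3 were tested and 1 passed at the adjusted p-value. TNFRSF10B encodes DR5, a TRAIL receptor that is a known target of p53 and of CHOP, and had 88.7, 104 and 83.4 CPM in ACM and 76.5, 59.4 and 62.8 CPM in UCM. All ACM values lay above all UCM values, with UCM replicate 1 closest to them. The log2 FC was 0.48 (SE 0.11, adjusted p = 0.0431 from edgeR). It was 0.60 without UCM replicate 1 (adjusted p = 0.0049) and 0.38 without ACM replicate 2 (adjusted p = 0.148). The call also ended without ACM replicate 1 or 3 and without UCM replicate 2 or 3, with an adjusted p-value of up to 0.161 from edgeR. The gene shares 377 exon bases with RHOBTB2 on the opposite strand, and whether strand was used in counting is not given in the sources used here. The other TRAIL receptor with a death domain, TNFRSF10A (DR4), did not pass the filter, its counts being 11, 9 and 4 in ACM against 23, 8 and 7 in UCM. At 0.36 ± 0.20 TPM (SD, n = 3) in ACM against 1.04 ± 0.73 TPM in UCM, it was far below TNFRSF10B, at 46.4 ± 4.19 TPM in ACM against 32.7 ± 5.78 TPM in UCM.

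TNFSF10, which encodes TRAIL itself, had 0 counts in all 6 libraries, which allows up to 0.143 to 0.175 CPM per library (3 counts, counting error only). FAS, the receptor for FAS ligand and a known p53 target, had a log2 FC of 0.01 (SE 0.12, adjusted p = 0.973 from edgeR). Its sign turned to -0.19 on log2(TPM + 1), and it shares 387 exon bases with the abundant ACTA2 on the opposite strand. FADD, the adaptor that brings caspase-8 to the receptors, was tight within groups, at 36.3, 35.9 and 36.1 CPM in ACM and 34.3, 34.5 and 34.0 CPM in UCM. The groups did not overlap, yet the difference was small and did not pass the test (log2 FC 0.07, SE 0.08, adjusted p = 0.612 from edgeR). TP53I3, a p53-induced oxidoreductase also known as PIG3, had a log2 FC of 0.14 (SE 0.22).

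**Figure D4:**
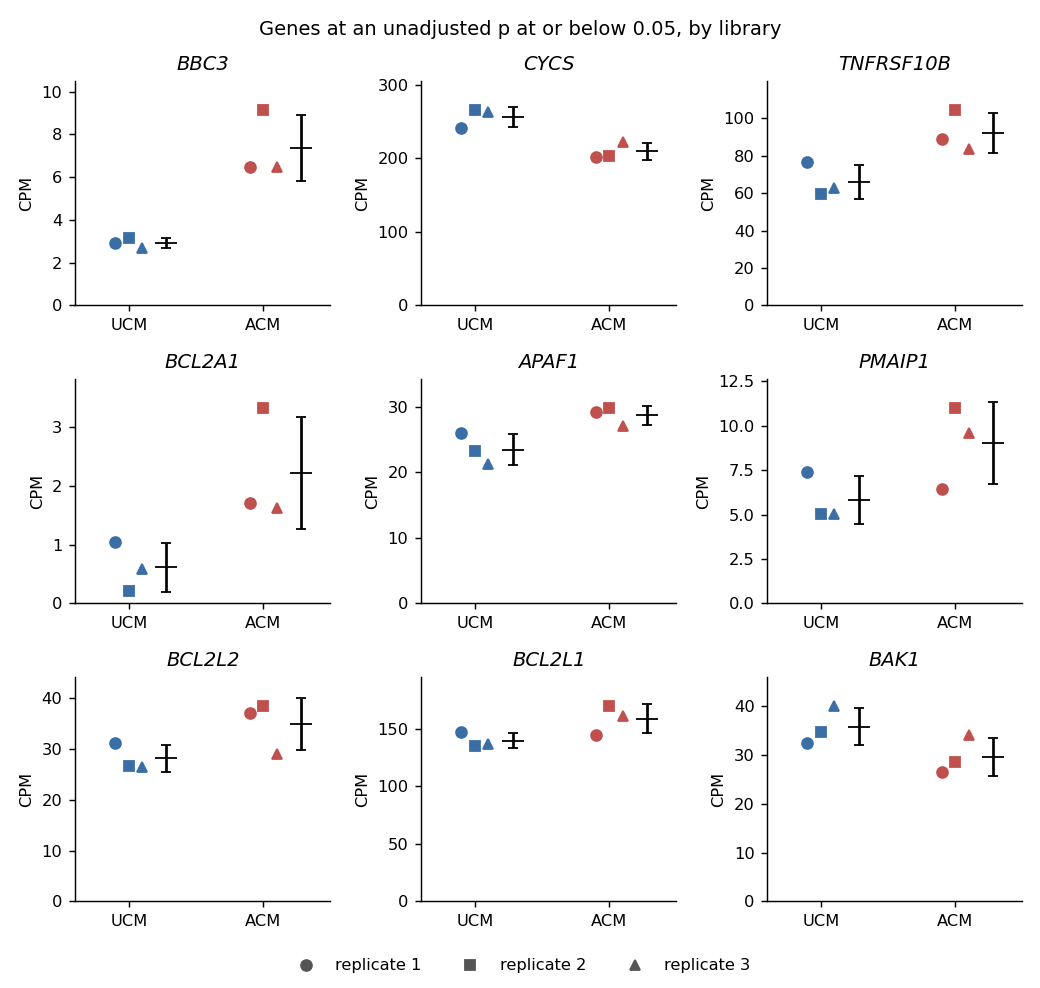
CPM (vertical axes from 0) of the 9 members called before or after adjustment in each library, with UCM in blue, ACM in red, symbols for the replicate number, and the mean and SD of each group as bars. BBC3, TNFRSF10B, BCL2A1 and APAF1 are higher and CYCS is lower in ACM without overlap, while in PMAIP1, BCL2L2, BCL2L1 and BAK1 the groups overlap.

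Other genes of the same pathways were read from the same fit, from lists that contain no member. Of 37 other genes of the death machinery, 25 were tested, with a median log2 FC of 0.07. At the adjusted p-value in edgeR 3 were higher and 0 lower, beside 3.35% and 2.21% of all genes. At an unadjusted p-value in edgeR 7 were higher and 1 lower, beside 11.9% and 11.5% of all genes. At the adjusted p-value DESeq2 called 5 higher and 0 lower. With limma-trend on log2(TPM + 1) 2 were higher and 0 lower, with the call of TNFRSF1A lost. The 3 genes called in edgeR were TNFRSF11B (log2 FC 1.23), BNIP3 (0.70) and TNFRSF1A (0.43). TNFRSF11B encodes osteoprotegerin, a soluble decoy receptor that binds TRAIL and RANKL. BNIP3 is a mitochondrial BH3-like protein of mitophagy, and TNFRSF1A is the main TNF receptor. The mean CPM of TNFRSF11B was 19.6 ± 5.27 (SD, n = 3) in ACM against 8.33 ± 1.33 in UCM. The decoy receptor TNFRSF10D had a log2 FC of 0.07 (SE 0.19) and TNFRSF10C had 0 counts in every library.

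Of 34 other p53 targets, 30 were tested, and the median log2 FC was -0.10. At the adjusted p-value in edgeR 1 was higher and 1 lower, 6.67% of those tested beside 5.56% of all genes. At an unadjusted p-value 4 were higher and 6 lower, 33.3% beside 23.3%. The CPM values did not overlap for 4 genes that were higher and 7 that were lower, beside 13.9% and 15.1% of all genes. DRAM1, a lysosomal protein of autophagy, was higher (log2 FC 0.54) and RPS27L, a ribosomal protein paralogue, was lower (-0.37). CDKN1A, which encodes the cell cycle inhibitor p21 and is the best known p53 target, held 240, 400 and 240 counts in ACM against 211, 171 and 142 in UCM, with a log2 FC of 0.77 (SE 0.25, adjusted p = 0.113 from edgeR). At the adjusted p-value DESeq2 called 3 of these genes higher (CDKN1A, DRAM1 and STEAP3) and 3 lower (IGFBP3, PLK2 and RPS27L). With limma-trend on log2(TPM + 1), STEAP3 was called higher and RPS27L lower. STEAP3 had the highest log2 FC of the list, 0.88 (SE 0.20, adjusted p = 0.0558 from edgeR). In edgeR, STEAP3 and PERP (0.31) were higher without overlap at an unadjusted but not at the adjusted p-value. Lower in the same way were SESN1 (log2 FC -0.57), IGFBP3 (-0.56), TIGAR (-0.53) and PLK2 (-0.45). These 6 genes were named after their values had been seen.

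All 11 genes of the branch of the integrated stress response through ATF4 and CHOP were tested, with a median log2 FC of 0.34. At the adjusted p-value in edgeR 5 were higher and 1 lower, 54.5% of them beside 5.56% of all genes. DESeq2 called 6 higher and 1 lower, and limma-trend on log2(TPM + 1) called 6 higher and 0 lower, with GDF15 added in both and the call of ATF5 lost in limma-trend. Among the genes called in edgeR, CHAC1, which degrades glutathione, had the largest increase (log2 FC 1.11), then SESN2 (0.96), a sensor of amino acid stress that p53 also induces, and CEBPB (0.75), a C/EBP transcription factor. ATF4 itself and TRIB3, a target of ATF4 and CHOP, were also higher, at 0.34 and 0.67, and ATF5 was lower at -0.62. DDIT3, which encodes CHOP, held 244, 226 and 167 counts in ACM against 224, 273 and 262 in UCM, and its log2 FC of -0.28 did not pass (SE 0.18, adjusted p = 0.383 from edgeR). GDF15, a secreted stress cytokine, had the largest log2 FC of the list, 2.87, but did not pass in edgeR (SE 0.65, adjusted p = 0.0899). It averaged 264 ± 192 CPM in ACM against 35.9 ± 12.5 CPM in UCM (SD, n = 3), without overlap between the groups. ATF4, TRIB3, DDIT3, GDF15, CDKN1A, ATF5 and the decoy receptors were named for their known place in the pathways after their values had been seen.

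All 12 survival targets of NF-kB were tested, with a median log2 FC of 0.52. At the adjusted p-value in edgeR 0 passed, beside 5.56% of all genes. At an unadjusted p-value 6 were higher and 1 lower, 58.3% of them beside 23.3%. The CPM values did not overlap for 4 that were higher and 1 that was lower, beside 13.9% and 15.1% of all genes. In BIRC3 UCM replicate 1 had 22.1 CPM, beside 10.0 and 9.04 in UCM replicates 2 and 3 and 18.2 to 26.4 in ACM. At the adjusted p-value DESeq2 called 6 of them higher and 1 lower (GADD45B, log2 FC -0.68 in edgeR), and limma-trend on log2(TPM + 1) called 2 higher. Of all genes DESeq2 called 726 higher and 420 lower of 25484, and limma-trend 230 and 132 of 14451. BIRC3 and GADD45B were named after their values were seen. SOD2, the mitochondrial superoxide dismutase, came closest, with a log2 FC of 1.51 (SE 0.31, adjusted p = 0.0532 from edgeR), named after its value was seen. This list shares BIRC2, BIRC3 and TRAF2 with that of the death machinery, and the list of p53 targets shares TNFRSF10C and TNFRSF10D with it, so the counts of these lists are not independent.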

How the data were processed

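The 6 libraries, 3 in ACM and 3 in UCM, were polyA-enriched and read in pairs. The authors used Trim Galore, then STAR against GRCh38, then RSEM, whose versions are not given in the sources used here. The deposited values used per gene and library are RSEM's expected count (unscaled), the TPM, and the effective length in bases. A further deposited table holds the fold changes and p-values of the authors' own comparison and was not used.

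Identifiers of 61547 genes matched GENCODE 44 with their version and 994 more without it, and all 36 members were matched. After rounding of the expected counts, edgeR 4.0.16 under R 4.3.3 compared the media (filterByExpr, TMM, a robust quasi-likelihood fit with no other term), with Benjamini-Hochberg adjustment over the 14451 genes tested. The procedure was tested on simulated data. The standard error (SE) is the log2 FC over the root of the F statistic. Levels were compared between genes as TPM only. The labels number the replicates but do not say whether wells are separate cultures, so p-values measure the spread between these samples. With 3 against 3, values outside the fit were given with no test.

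The members and the lists were chosen with earlier results of these data known, so no list has a p-value of its own. All members were described by role. Values in every library were given for those at an adjusted or unadjusted p-value at or below 0.05 and for the 5 with the highest TPM, and from each other list up to 3 genes with the largest change at the adjusted p-value were named. Values per library for MDM2, BAX as CPM, DIABLO, CFLAR, FADD and TNFRSF10A were added after they were seen. Alternatives were DESeq2 1.42.0, RLE size factors, 2 other filters, limma-trend (limma 3.58.1) on log2 TPM with a pseudocount of 1 or 0.1, effective lengths as offsets, the replicate number as a block, and each library left out.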

Additional observations from a re-analysis of the deposited data

How the results depend on the processing

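At the adjusted p-value BBC3 stayed higher under all 15 alternatives, TNFRSF10B stayed higher under 7 of them and CYCS stayed lower under 8. The number of members higher, 2, became 3 with DESeq2, 5 with no filter on low counts, 1 with limma-trend (log2 TPM, pseudocount 1 or 0.1), 1 with effective lengths as offsets, and 7 without replicate 1 of both conditions, which was chosen after seeing the data. With each library left out in turn it lay between 1 and 6. The number lower, 1, became 0 with limma-trend (2 at an unadjusted p-value with either pseudocount) and with effective lengths in edgeR (1), and lay between 0 and 1 with each library left out, where CYCS kept an unadjusted p-value at or below 0.05 (0.0144 at most).

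Over all genes, 484 were higher and 320 lower. These became 726 and 420 with DESeq2, 1045 and 679 with no filter, 230 and 132 with limma-trend with 1 added, 234 and 138 with 0.1 added, 272 and 134 with effective lengths, and 1017 and 726 without replicate 1 of both conditions. With RLE size factors they were 506 and 294. With each library left out they lay between 125 and 738 and between 62 and 572. The cause of these differences was not tested, other than that a fit with fewer libraries has less to estimate the spread from.

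Same-numbered libraries of the 2 conditions had correlations of deviations of 0.318, 0.0347 and 0.177, not all over 0.1, so the numbers were not taken to pair the wells. ACM replicate 3 and UCM replicate 2 correlated best with each other rather than with their own numbers. With the replicate block 909 genes were higher and 703 lower, and the members called stayed at 2 and 1.

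Signs turned only among members that were not called. With limma-trend (1 and 0.1 added) and with effective lengths the log2 FC was 0.13, 0.15 and 0.14 for MDM4, -0.068, -0.091 and -0.078 for BCL2, and -0.19, -0.20 and -0.18 for FAS. Without replicate 1 of both conditions it was 0.012 for MDM4, 0.043 for CASP8 and -0.037 for FAS. With each library left out it ranged from -0.27 to 0.22 for MDM4, -0.0053 to 0.24 for BCL2, -0.0033 to 0.053 for MCL1, -0.042 to 0.013 for BAX, -0.16 to 0.025 for BAD, -0.055 to 0.023 for CASP8, -0.087 to 0.095 for FAS and -0.056 to 0.30 for TP53I3.

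Depth limits the members with few counts. BIK, HRK, CASP10, TNFRSF10A and TNFSF10 could not be tested. The changes of BCL2A1, BMF, CASP6, TP53I3, CASP9 and BBC3 rest on at most 162 counts per library.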
